A study of Mus musculus with 26 samples.

Results

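Promoter H3K27me3 was compared between mouse embryonic fibroblasts (MEFs) and embryonic stem (ES) cells. H3K27me3 is a trimethylated lysine in the tail of histone H3. The MEFs were MEF1, a male line, and MEF2, a female line. The ES lines were E14 and V6.5, both grown in standard ES cell medium. For the MEFs no culture conditions are given in the sources used here. No treatment is named for any of the 4 lines. The comparison was chosen by mark and line alone and takes 8 of the 26 arrays of the series, 2 arrays per line. The 2 arrays of a set carry different promoters, so each line is 1 replicate and each group has n = 2 lines. The series was designed to set induced pluripotent (iPS) cells beside ES cells and MEFs, and the same 4 lines were also hybridised for H3K4me3, while RNA was measured on 6 arrays, of which 2 held V6.5 ES cells on feeders and 2 held female MEFs.

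H3K27me3 is written by Polycomb repressive complex 2 and is bound by other Polycomb proteins that keep transcription off. In ES cells it lies mostly on CpG-rich promoters of developmental regulators, often together with H3K4me3, the mark of active and poised promoters. On differentiation, a lineage is known to shed the mark from the regulators it uses and to acquire it at some promoters of the earlier state.

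Each value is the log2 ratio of immunoprecipitated over input DNA, centred on the median of its array and averaged over all probes lying no more than 1000 bp from a transcription start. It was obtained for 15141 promoters, with a median of 10 probes each. A value of 0 therefore stands for the typical probe of that array and not for absence of the mark, and a lower value in a mass of cells may mean fewer cells with the mark or less of it per cell, which cannot be told apart here. In each channel of the 8 arrays, 93.7% to 99.9% of probes passed the scanner's test for signal above background. The arrays differed in range: for E14 the ratios had a median absolute deviation of 0.291 and 0.289, compared with 0.454 to 0.712 for the remaining 6 arrays. The labelling text of the MEF arrays names Cy3 for the immunoprecipitate, whereas their label field names Cy5. The label field was followed, and promoter values correlated across promoters at 0.680 to 0.692 between each ES line and each MEF line, against 0.949 between the ES lines and 0.945 between the MEF lines. Each of the 4 lines was scanned on a date of its own, so that line and scan date cannot be told apart. RNA of the marker genes went with the labels: 9 of 9 ES cell markers were lower and 12 of 12 fibroblast markers higher in MEFs (limma, adjusted p under 0.05 and at least 2-fold). The deposited scanner files of the ES and MEF RNA arrays are filed under each other's group, and the deposited value table was followed.

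The largest differences were lower H3K27me3 in MEFs at Prrx1, Zeb2 and clustered protocadherins, and higher H3K27me3 there at Tdgf1 and Sall4, genes of the pluripotency network. The sequences below show the region just before the start of 5 genes on which the account turns, namely Zeb2 and Col1a2, lower in MEFs, Tdgf1 and Lin28b, higher in MEFs, and Lhx8, high in all 4 lines. They are the 250 bases before the RefSeq start in build GRCm38.p6, on the strand of the gene, at chr2:45113254-45113503 (minus strand), chr6:4505368-4505617 (plus), chr9:110946159-110946408 (minus), chr10:45470202-45470451 (minus) and chr3:154330561-154330810 (minus). Capitals mark the bases covered by array probes.
Zeb2: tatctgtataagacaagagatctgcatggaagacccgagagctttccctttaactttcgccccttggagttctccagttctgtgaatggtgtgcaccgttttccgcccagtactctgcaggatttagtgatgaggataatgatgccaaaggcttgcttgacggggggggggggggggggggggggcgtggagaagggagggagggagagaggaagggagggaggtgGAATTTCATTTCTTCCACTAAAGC
Col1a2: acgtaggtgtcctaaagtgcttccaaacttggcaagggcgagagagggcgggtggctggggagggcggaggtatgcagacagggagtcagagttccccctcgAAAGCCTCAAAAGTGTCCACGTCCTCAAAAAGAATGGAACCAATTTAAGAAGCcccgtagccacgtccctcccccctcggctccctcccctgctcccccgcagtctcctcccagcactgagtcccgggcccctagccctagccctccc
Tdgf1: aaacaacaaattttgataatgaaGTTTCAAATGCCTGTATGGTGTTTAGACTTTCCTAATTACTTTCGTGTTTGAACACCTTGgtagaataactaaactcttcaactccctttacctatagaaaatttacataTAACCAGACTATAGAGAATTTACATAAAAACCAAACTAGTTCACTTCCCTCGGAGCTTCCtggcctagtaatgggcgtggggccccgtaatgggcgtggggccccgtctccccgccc
Lin28b: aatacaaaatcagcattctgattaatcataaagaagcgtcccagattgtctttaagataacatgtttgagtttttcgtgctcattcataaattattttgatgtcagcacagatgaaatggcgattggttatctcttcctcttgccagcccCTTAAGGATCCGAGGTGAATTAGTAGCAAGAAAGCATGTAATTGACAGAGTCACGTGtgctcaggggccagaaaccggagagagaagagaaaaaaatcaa
Lhx8: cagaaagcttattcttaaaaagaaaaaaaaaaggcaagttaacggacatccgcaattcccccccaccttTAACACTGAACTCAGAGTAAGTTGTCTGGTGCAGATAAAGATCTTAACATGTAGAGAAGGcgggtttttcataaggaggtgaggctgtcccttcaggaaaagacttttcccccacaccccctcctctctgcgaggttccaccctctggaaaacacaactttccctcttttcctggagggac
The probe in the Zeb2 sequence read 2.37 in E14, 3.51 in V6.5, -0.55 in MEF1 and -0.84 in MEF2. The 2 probes in the Tdgf1 sequence gave a mean of 0.08 in E14, -0.36 in V6.5, 2.53 in MEF1 and 2.97 in MEF2. The Lhx8 probe was high throughout, at 2.34 in E14, 3.54 in V6.5, 2.46 in MEF1 and 3.08 in MEF2. The 250 bases hold 6 CpG dinucleotides in Zeb2, 11 in Col1a2, 7 in Tdgf1, 6 in Lin28b and 4 in Lhx8.

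Promoters whose log2 ratio reached 1 were counted as marked. By that measure 404 promoters were marked in E14, 1929 in V6.5, 1013 in MEF1 and 1683 in MEF2. The low count of E14 went with the narrow range of its arrays: all 404 of its promoters were also marked in V6.5, where they made up 20.9% of the marked set. In the MEFs, 980 promoters were marked in both lines, 96.7% of the MEF1 set and 58.2% of the MEF2 set. Marked in all 4 lines were 247 promoters, 61.1% of those marked in both ES lines and 25.2% of those marked in both MEF lines. Both ES lines but neither MEF line held 126, and both MEF lines but neither ES line held 326. Against V6.5 alone the overlap was larger: 654 of the 980 MEF promoters, or 66.7%, were also marked in V6.5, and 957 were marked in V6.5 and in neither MEF line. No line reached the threshold at 12468 promoters. With each array scaled to one spread, the marked promoters numbered 1753 in E14, 1991 in V6.5, 824 in MEF1 and 898 in MEF2. Both ES lines then lay above both MEF lines, whereas without the scaling E14 had the lowest count and V6.5 the highest.

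Of 15141 promoters, 696 were higher in MEFs (4.6%) and 1158 were lower (7.65%) by limma at an adjusted p under 0.05. At an unadjusted p under 0.05 there were 4609. At all of the 696 and 1158 adjusted calls both lines of one group lay above both of the other. Such a separation was common: over all 15141 promoters both ES lines lay above both MEF lines at 5300, and the reverse held at 3765. The lower calls had a median difference of -0.87 log2 units and reached -3.18, and the higher calls had a median of 0.85 and reached 2.40. The median over all promoters was -0.04. Many lower calls did not have a high ES mean: 202 of the 1158 had an ES mean of at least 1, while 628 had an ES mean under 0.5. Among the 696 higher calls, 319 had a MEF mean of at least 1. By a rule of size alone, both MEF lines lay at least 1 above both ES lines at 90 promoters (0.594%), and at least 1 below at 181 (1.2%). The counts rest on 2 lines a group: without V6.5 or without MEF2 limma called no promoter, although 4548 and 2517 had an unadjusted p under 0.05, without MEF1 it called 174 higher and 124 lower, and without E14 it called 447 higher and 1358 lower. Higher calls made up 37.5% of all calls, against 50.4% after quantile normalization and 52.4% after another background correction. Quantile normalization also moved the median over all promoters by 0.12, to 0.08.

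**Figure D1:**
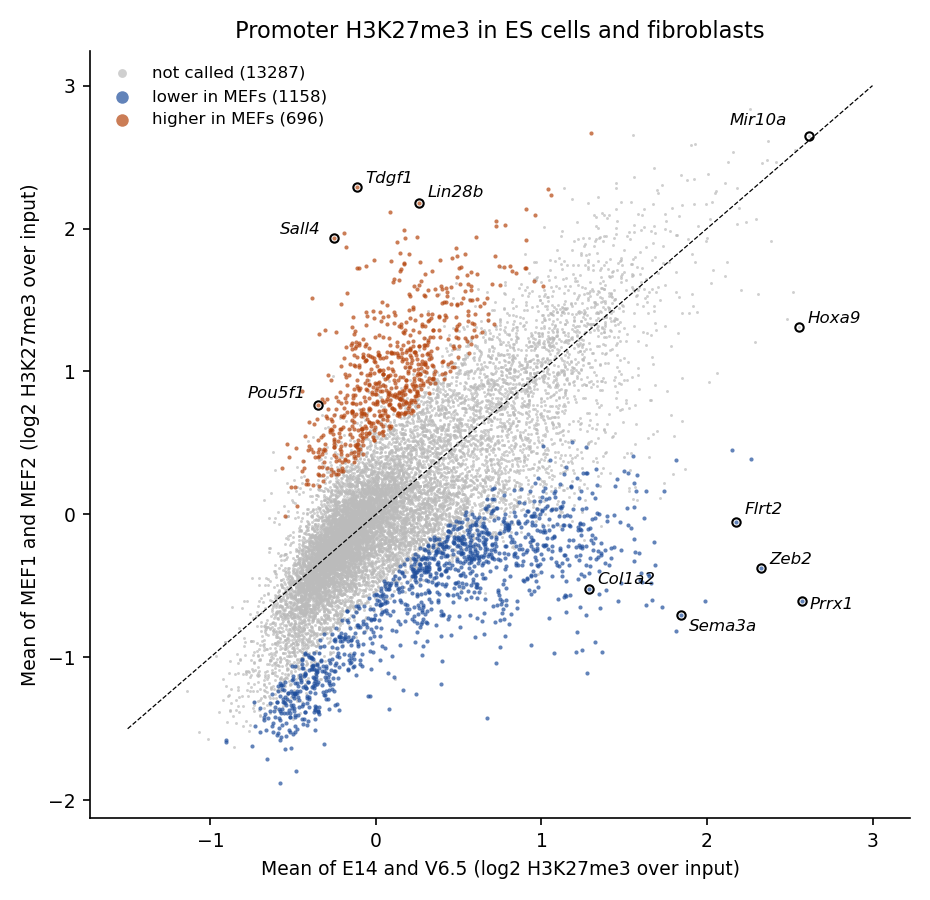
Mean H3K27me3 over input (log2) of the 2 ES lines against that of the 2 MEF lines for 15141 promoters, with the promoters called by limma in colour and some named genes circled. Prrx1 and Zeb2 lie far below the diagonal, Tdgf1 and Sall4 far above it, and Mir10a close to it at the upper end.

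The 12 largest lower calls were led by Prrx1 and Zeb2, factors of mesenchyme, and otherwise held 8 clustered protocadherins, Sema3a and Flrt2. Prrx1, a homeobox factor of limb and craniofacial mesenchyme, read 2.06 in E14, 3.08 in V6.5, -0.45 in MEF1 and -0.76 in MEF2. The groups did not overlap, and the difference of -3.18 ± 0.35 (SE; adjusted p = 0.026) was the largest of all promoters in either direction. Zeb2, a repressor of epithelial genes, read 1.77 and 2.88 in E14 and V6.5, and -0.39 and -0.36 in MEF1 and MEF2. Its difference was -2.70 ± 0.36 (SE; limma adjusted p = 0.026). Snai2, another such repressor, went from 0.88 and 1.21 in the ES lines to -0.43 and -1.02 in the MEF lines. Of 46 mesenchyme transcription factors measured, 9 were lower in MEFs, none was higher and 37 were not called. Among all promoters 7.65% were lower and 4.6% higher. The other list members that were called were Runx1, Twist2, Foxp1, Runx2, Ebf1 and Hic1. The list's median difference was -0.12, close to that of all promoters, and its sign turned to 0.05 under another background correction and to 0.22 without V6.5, so the falls concern some members and not the list as a whole.

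Of 43 fibroblast matrix and surface genes, 14 were lower, 1 was higher and 28 were not called, and the median difference was -0.56. The shares over all promoters were 7.65% lower and 4.6% higher. Col1a2, a chain of type I collagen, read 0.98 in E14, 1.60 in V6.5, -0.45 in MEF1 and -0.59 in MEF2. Col1a1, its partner chain, read 0.94, 1.19, -0.05 and -0.82 in the same order. In both genes the MEF lines lay below both ES lines, by -1.81 ± 0.23 (SE) in Col1a2 and -1.499 ± 0.28 (SE) in Col1a1 (limma adjusted p = 0.026 and 0.036). Fbln5, of elastic fibres, was lower by 1.64 log2 units and the cadherin Cdh11 by 1.44. A high ES mean was not general in this list: 8 of the 43 had an ES mean of at least 1 and none had a MEF mean of at least 1. Col3a1, a fibrillar collagen with RNA called higher in MEFs, read -0.09, -0.39, -0.59 and -0.80, and was not called. The single higher member was Lum, a proteoglycan of collagen matrix, at -0.10 and -0.27 in the ES lines against 0.45 and 0.53 in the MEF lines. Lum RNA was called higher in MEFs, so there the mark and the RNA moved the same way.

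Of 37 axon guidance genes 6 were lower, set beside 7.65% of all promoters, and the signalling and cell cycle lists stood at about that share or under it. Sema3a, a secreted repellent of axons, read 1.43 in E14, 2.26 in V6.5, -0.61 in MEF1 and -0.80 in MEF2, a difference of -2.54 ± 0.29 (SE; limma adjusted p = 0.026). The 6 guidance genes were Sema3a, Sema6a, the Sema3a receptor Nrp1, Sema3e, Sema3c and Plxna2, and none of the list was higher. Flrt2, an adhesion protein of the cell surface, read 2.03, 2.32, -0.15 and 0.04 in the same order of lines. Among 41 genes of the BMP, TGF-beta, FGF and hedgehog signals, Inhba, Tgfb3 and Fst were lower, while Nodal, Gdf3 and Fgf4 were higher. Inhba, a subunit of activin, read 1.03 and 1.74 in E14 and V6.5 against -0.23 and -0.83 in MEF1 and MEF2. Of 28 Wnt ligands and antagonists, Wnt5a was lower, by 1.52 log2 units, and Wnt8b higher, by 0.82. Cdkn2c, an inhibitor of cyclin-dependent kinases, was the single called member of 15 cell cycle inhibitors, at 1.19 and 2.11 in the ES lines and -0.38 and -0.45 in the MEF lines. Bmi1, a subunit of Polycomb repressive complex 1, was the single one called of 27 Polycomb and H3K27 demethylase genes, at 0.96, 1.77, -0.29 and -0.11.

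The clustered protocadherins, adhesion proteins by which neurons tell their own processes from those of others, formed the most uniform family. It was singled out after its values were seen. All 20 beta protocadherin promoters measured were lower in MEFs, and at all 20 both ES lines lay at least 1 above both MEF lines. In E14 they ran from 0.63 to 1.61 with a median of 1.17, and in V6.5 from 0.61 to 2.36 with a median of 1.51. In MEF1 they ran from -1.34 to -0.19 and in MEF2 from -1.51 to -0.10, so no fibroblast value reached any ES value of the family. The median difference was -2.09, and all 20 were also called under each of the other scalings, windows and filters, while without MEF1 17 were called and without V6.5 or MEF2 none. Pcdhb19 had the largest difference, at 1.46, 2.16, -0.84 and -0.79. These genes lie side by side, so neighbouring promoters may share one domain and are not independent. RNA was measured for 10 of the 20, and all 10 were called higher in MEFs. A gene has an RNA value only if its probe was above background on all arrays of a group. Pcdhb5, Pcdhb7, Pcdhb19, Pcdhb20 and Pcdhb22 were above background on 2 MEF arrays and on 0 ES arrays. A lower call could thus hardly arise for them, and the RNA count is no separate support. Of 6 alpha and gamma protocadherin promoters 4 were lower.

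A different kind of lower call came from large receptor families, again singled out after the values were seen. Of 576 olfactory receptor promoters 178 were lower and 23 higher in MEFs. The shares over all promoters were 7.65% and 4.6%, and the 23 are close to the latter. The olfactory receptor medians were -0.29 in E14, -0.47 in V6.5, -0.85 in MEF1 and -0.99 in MEF2, under the array median in all 4 lines. Of 35 taste receptor promoters 18 were lower, and of 58 vomeronasal receptor promoters 22 were lower and 1 higher. Without E14 the lower calls were 61 olfactory, 11 taste and 8 vomeronasal receptors, and without MEF1 they were 8, 1 and 0, while without V6.5 or MEF2 there were none. For the olfactory receptors the median difference was -0.51, and it was -0.26 with each array scaled to one spread and -0.165 after quantile normalization. These promoters were marked in few cases: 2 of the 576 had an ES mean of at least 1 and 11 a MEF mean of at least 1.

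**Figure D2:**
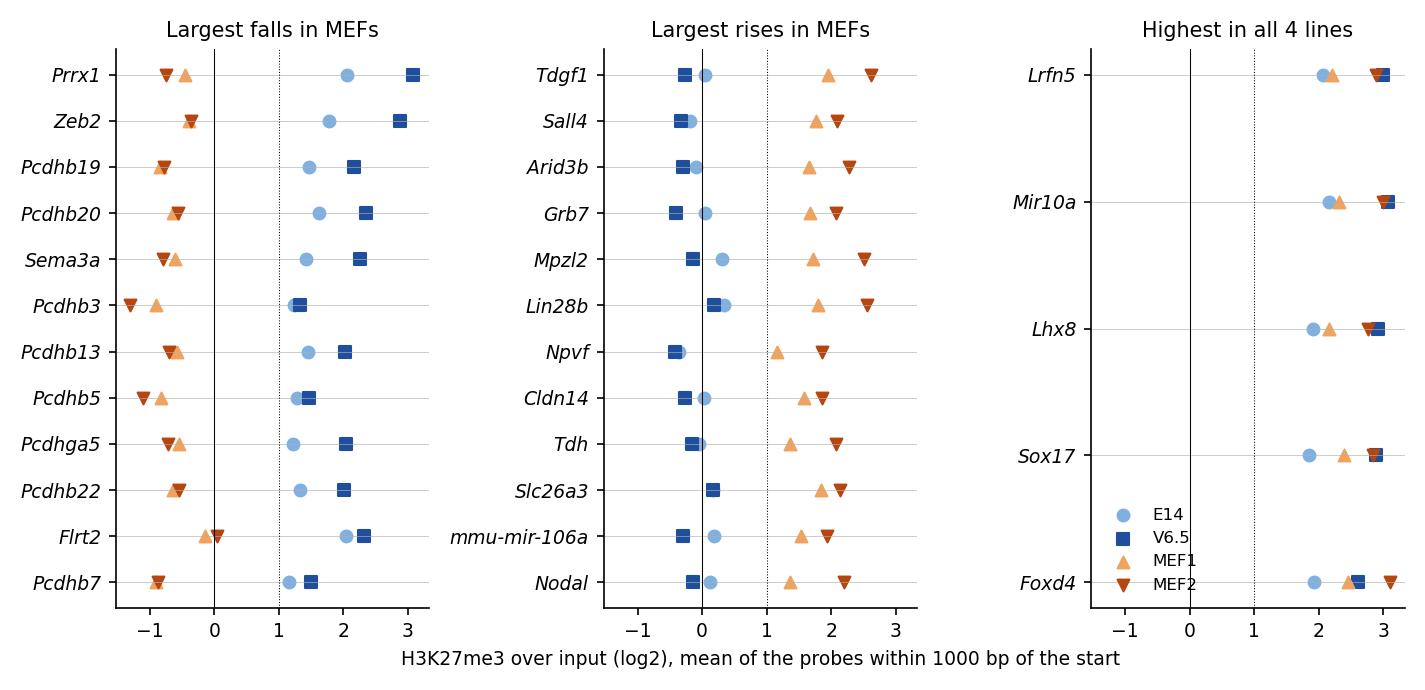
H3K27me3 over input (log2, mean of the probes within 1000 bp of the start) in each of the 4 lines, for the 12 named promoters with the largest lower and the 12 with the largest higher calls in MEFs and for 5 of those with the highest lowest value over the lines. Each point is 1 line, and the dotted line is the threshold of 1 for a marked promoter. In the left and middle panels the MEF points stand clear of the ES points, and at the right all 4 lines lie above 1.

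Promoters that were higher in MEFs were led by the pluripotency network. Tdgf1, which encodes the Nodal co-receptor Cripto, read 0.04 in E14, -0.27 in V6.5, 1.96 in MEF1 and 2.62 in MEF2. Its difference of 2.40 ± 0.25 (SE; limma adjusted p = 0.026) was the largest rise of all. Sall4, a zinc finger factor of ES cells, read -0.18 and -0.33 in the ES lines against 1.77 and 2.10 in the MEF lines. Tdh, threonine dehydrogenase of ES cell metabolism, read -0.05, -0.16, 1.36 and 2.08. Nodal, the TGF-beta family ligand of early embryos, read 0.11, -0.13, 1.36 and 2.19. In each of these 4 the ES lines lay near the array median and both MEF lines were marked.

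Of 31 pluripotency genes measured 15 were higher in MEFs, none was lower and 16 were not called, and the median difference was 0.72. Of all promoters 4.6% were higher and 7.65% lower. No member of the list had an ES mean of at least 1, and 13 had a MEF mean of at least 1. Between 8 and 23 of the 31 were called higher under the other scalings, windows and filters, and the list's median stayed above 0 in all of them and without each of the lines. Pou5f1 and Sox2, factors that define the state, were called with smaller values, and Nanog had no promoter value. Pou5f1 read -0.24 and -0.46 in the ES lines and 0.74 and 0.80 in the MEF lines, a difference of 1.12 ± 0.13 (SE; limma adjusted p = 0.026). Sox2 read -0.23, -0.04, 0.69 and 1.07. Lin28a, an RNA-binding repressor of let-7 processing, read -0.03, 0.00, 0.94 and 1.21. Its paralog Lin28b, which is not in the list but among the 12 largest rises, read 0.35, 0.18, 1.79 and 2.56. Other members stayed without a call although their RNA was called lower in MEFs: Zfp42 read -0.52, -0.57, -0.17 and -0.15, and Dppa4, a chromatin protein of the early embryo, read -0.26, -0.73, -0.57 and -0.87, below the array median in all 4 lines. The ES cell marker Esrrb, whose RNA was also called lower, read 0.46, 0.64, 0.95 and 1.25 without a call.

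Epithelial junction and keratin genes showed 7 higher and 1 lower of 32, with a median difference of 0.37. All promoters had 4.6% higher and 7.65% lower. Cdh1, E-cadherin, read 0.07 in E14, 0.16 in V6.5, 1.26 in MEF1 and 1.53 in MEF2. Grhl3, a transcription factor of surface epithelium, read 0.29, -0.08, 1.45 and 1.80. St14, Tjp3, Epcam, Spint2 and Grhl1 were the other members that were higher, and Marveld2, of tricellular junctions, was lower by 0.76. With each array scaled to one spread the list had 9 higher and 8 lower, and all 15141 promoters had 1517 higher and 3621 lower. The balance thus moved with the range of the arrays, in the list and over all promoters. The list's lower calls then stood near the share of all promoters, and its higher calls above it. Further promoters among the 12 largest rises were Arid3b, an AT-rich DNA-binding factor, Grb7, an adaptor of receptor tyrosine kinases, Mpzl2, an epithelial adhesion protein, Cldn14, a claudin, Slc26a3, an anion exchanger, and Npvf, a neuropeptide precursor. Their MEF values ran from 1.16 to 2.51 and their ES values from -0.41 to 0.31.

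Of 22 blood and macrophage genes 4 were higher and 2 lower in MEFs. Over all promoters 4.6% were higher and 7.65% lower, and the 2 are close to the latter share. Cd3g, a chain of the T-cell receptor complex, read 0.12 and 0.23 in the ES lines and 1.76 and 2.11 in the MEF lines, and Cd3e read 0.39, 0.37, 1.17 and 1.59. Cd14, a lipopolysaccharide co-receptor of macrophages, was lower, at 1.19, 1.93, 0.04 and 0.40, as was Csf1r, the receptor for the macrophage growth factor, at 0.07, 0.03, -0.43 and -0.51. The RNA of 6 of 8 macrophage markers was called higher in MEFs and that of 1 was lower. Their summed signal, in units of each array's 75th percentile, was 3.48 and 3.86 on the ES arrays and 108.3 and 62.7 on the MEF arrays, and 5 of the 8 were above background on an ES array. The part of such cells in the H3K27me3 values of the MEFs was not tested.

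Among 31 germ line genes 5 were lower and 1 was higher, beside 7.65% lower and 4.6% higher over all promoters. Mael, of the piRNA pathway, read 0.92 and 1.36 in the ES lines and -0.09 and -0.07 in the MEF lines, and Piwil1, Asz1, Stra8 and Tdrd7 were lower by smaller amounts. None of the 31 was called higher in H3K4me3 and 11 were lower, beside 2.08% and 3.19% of all promoters. With another background correction none of the 31 was called lower in H3K27me3. Dmc1, a recombinase of meiosis, was the higher member. No promoter of 13 endothelial, 27 imprinted or 37 housekeeping genes was called by limma, although 3, 7 and 4 of them had an unadjusted p under 0.05. With quantile normalization 7 housekeeping genes were called higher and 3 lower, and with each array scaled to one spread 5 and 3. Over all 15141 promoters the same settings called 2526 and 2485, and 1517 and 3621.

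**Figure D3:**
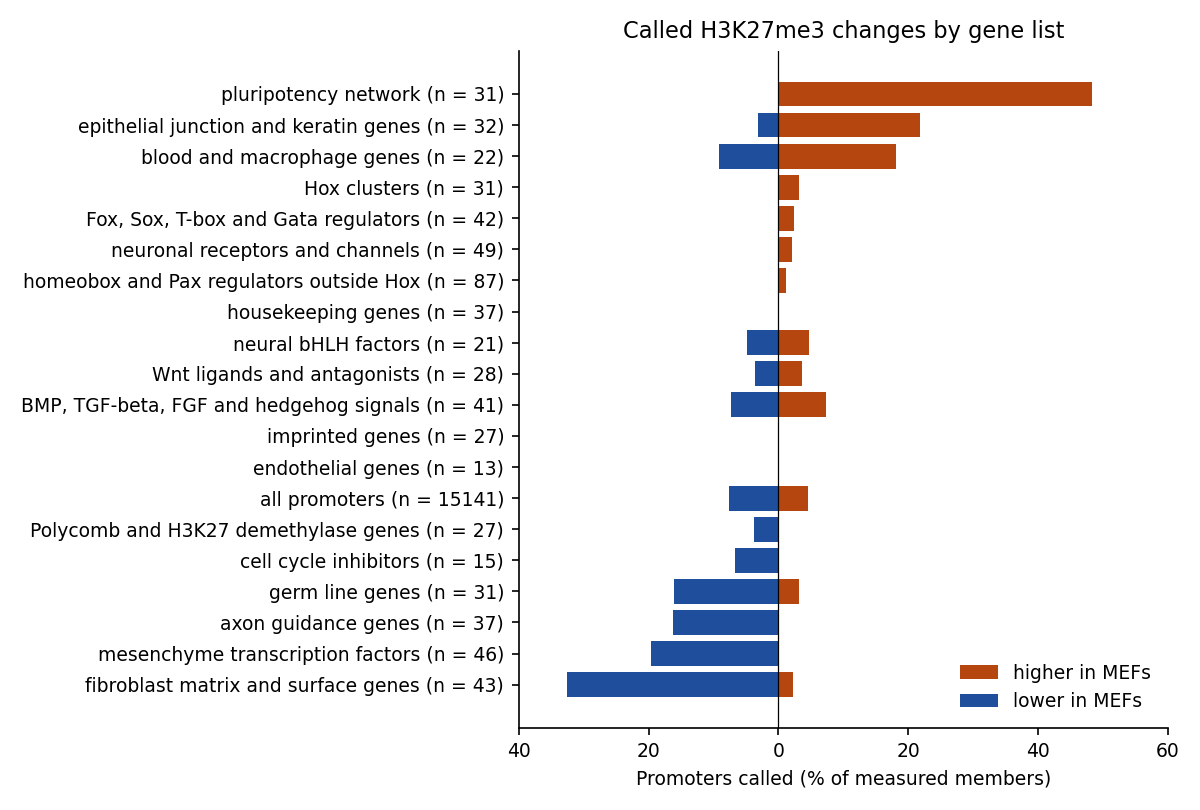
Share of the measured members of 19 gene lists whose promoter H3K27me3 was called lower (left of 0) or higher (right of 0) in MEFs by limma at an adjusted p under 0.05, beside the share over all 15141 promoters. Among these lists, which leave out the protocadherin and receptor families, the pluripotency network reaches furthest to the right with 15 of 31, and the fibroblast matrix and surface genes furthest to the left with 14 of 43.

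Many developmental regulators were marked in both cell types. Among the promoters with the highest lowest value over the 4 lines were Mir10a, Lrfn5, Foxd4, Lhx8 and Sox17. Lhx8, of basal forebrain neurons, read 1.92 in E14, 2.91 in V6.5, 2.17 in MEF1 and 2.77 in MEF2. Sox17, of endoderm, read 1.85, 2.89, 2.39 and 2.84. At these promoters the lines of 1 group differed by more than the group means did, and none was called. Their direction is not settled by these data, since with each array scaled to one spread all 5 were called lower in MEFs.

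Of 87 homeobox and Pax regulators outside the Hox clusters, 50 had an ES mean and 60 a MEF mean of at least 1, and 1, Pou4f1, was called higher. The list's medians were 0.78 in E14, 1.58 in V6.5, 1.19 in MEF1 and 1.56 in MEF2, and its median difference of 0.17 became -0.26 with the arrays scaled to one spread. Of 42 Fox, Sox, T-box and Gata regulators, Foxh1, a partner of SMAD proteins in Nodal signalling, was called, at -0.02 and -0.24 in the ES lines and 1.11 and 1.40 in the MEF lines. Of 49 neuronal receptors and channels 1 was called, Chrnb2, which was higher, and of 21 neural bHLH factors Neurod6 was higher and Neurod4 lower. Of 6 extraembryonic endoderm markers 6 had an ES mean and 5 a MEF mean of at least 1. The exception was Dab2, an endocytic adaptor, which read 1.097 and 1.44 in the ES lines and -0.48 and -0.93 in the MEF lines.

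The Hox clusters, which set position along the body axis, carried the mark in both groups. Of 31 Hox promoters 27 had an ES mean and 22 a MEF mean of at least 1, and 1 was called, Hoxc13, at 0.32, 0.66, 1.27 and 1.68. The clusters did not look alike when taken apart, a split made after the values were seen. Genes of a cluster lie side by side, so neighbouring promoters may share one domain and are not independent. All 9 Hoxa promoters measured had a lower MEF than ES mean, by -0.19 to -1.25, and the median difference was -0.77, whereas it was 0.21 over 7 Hoxb, 0.25 over 8 Hoxc and -0.23 over 7 Hoxd promoters. Hoxa9 read 1.91 in E14, 3.20 in V6.5, 1.08 in MEF1 and 1.54 in MEF2, so its MEF lines lay below both ES lines. No Hoxa promoter passed the test; 8 of the 9 did without E14, and 9 of 9 with each array scaled to one spread. The Hoxb and Hoxc medians turned to -0.61 and -0.66 with that scaling, while the Hoxa median stayed below 0 in all settings tried. An RNA value was given only to genes whose probe was above background on all arrays of a group. RNA was called higher in MEFs for 18 of the 23 Hox genes with a value. Of those 18, Hoxa2, Hoxa5, Hoxa6, Hoxa10 and Hoxd9 had a MEF mean under 1.

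MicroRNA genes were measured at 127 places, and 14 were higher and 10 lower in MEFs. Over all promoters 4.6% were higher and 7.65% lower, and the 10 are close to the latter share. Of the 14, Mir154, Mir377, Mir382, Mir409 and Mir485 are all on chromosome 12. Others lie together on chromosome 4 and on the X chromosome, so the 14 are not independent places. The array places their start at or near the hairpin, which need not be the promoter of the primary transcript. The mature sequences below (RefSeq, GRCm38.p6) are those of some of the hairpins described here, with the seed, bases 2 to 8, in capitals. miR-200b and miR-429 share a seed, and the miR-106a seed is that of the miR-17 family.
mmu-miR-106a-5p: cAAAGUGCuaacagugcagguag
mmu-miR-19b-3p: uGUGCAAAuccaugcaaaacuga
mmu-miR-200a-3p: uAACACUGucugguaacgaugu
mmu-miR-200b-3p: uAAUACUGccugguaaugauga
mmu-miR-429-3p: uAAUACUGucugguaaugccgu
mmu-miR-125b-5p: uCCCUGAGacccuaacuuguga
mmu-miR-199a-5p: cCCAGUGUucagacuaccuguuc
mmu-miR-10a-5p: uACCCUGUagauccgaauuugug
The place of mmu-mir-106a read 0.18 in E14, -0.30 in V6.5, 1.54 in MEF1 and 1.94 in MEF2, and that of mmu-mir-19b-2, in the same cluster on the X chromosome and close enough to share probes, read 0.03, -0.38, 1.32 and 1.77. The mmu-mir-200b, mmu-mir-200a and Mir429 places, which lie together on chromosome 4 and belong to a family known to hold back Zeb2, were higher in MEFs by 0.86, 0.75 and 1.03. Mir141 and mmu-mir-200c, of the same family but on chromosome 6, were not called, with differences of -0.003 and 0.12. In the other direction mmu-mir-125b-1 went from 0.55 and 0.97 in the ES lines to -0.43 and -0.94 in the MEF lines, and mmu-mir-199a-2 from 0.26 and 0.28 to -0.73 and -0.81. Mir10a, within the Hoxb cluster, was among the highest in all lines, at 2.16, 3.07, 2.31 and 2.99. The genes of this paragraph other than Mir10a and mmu-mir-106a were chosen after their values were seen.

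The mark extended well beyond the start. Over the 202 lower promoters with an ES mean of at least 1, the mean over 500-bp bins in V6.5 was 0.65 in the bin centred at -4750 bp, 1.74 at -750 bp, 1.25 at -250 bp and 1.99 at 750 bp. In E14 the same bins held 0.42, 1.15, 0.75 and 1.33. In MEF1 and MEF2 every bin from -5000 to 2500 bp lay between -0.31 and -0.05. The dip at the start stood in both ES lines and also, in the MEF lines, at the 319 higher promoters with a MEF mean of at least 1, where MEF2 had 1.64 at -750 bp, 1.29 at 250 bp and 1.62 at 750 bp. At those promoters the ES lines stayed between 0.14 and 0.39 in all bins. The bins held from 336 to 797 probes in these 2 classes. Both classes were chosen by the same values within 1000 bp of the start, so the gap between the groups in the bins there follows from the choice.

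**Figure D4:**
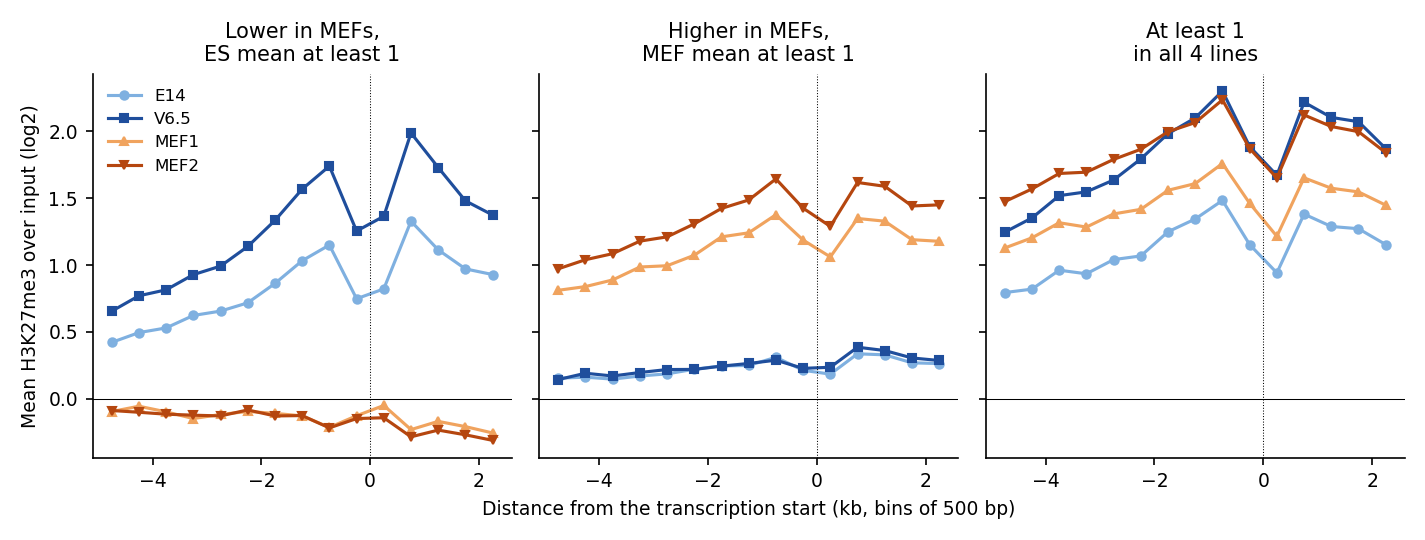
Mean H3K27me3 over input (log2) by distance from the transcription start, in bins of 500 bp, for each of the 4 lines. The 3 panels hold 202 promoters called lower in MEFs with an ES mean of at least 1, 319 called higher with a MEF mean of at least 1, and 247 with at least 1 in all lines. The promoters of each panel were chosen by the values within 1000 bp of the start. V6.5 reaches 1.99 in the left panel, MEF2 reaches 1.64 in the middle one, and all lines dip near the start where they carry the mark.

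H3K4me3 was then compared at the same promoters, a readout the choice of promoters had not used, in the same 4 lines. Over all promoters 315 were higher (2.08%) and 483 lower (3.19%) in MEFs by limma. Of the 1158 promoters with less H3K27me3, 123 had more H3K4me3 (10.6%) and 29 less. Of the 696 with more H3K27me3, 115 had less H3K4me3 (16.5%) and 3 more, namely Abi3bp, C1qtnf7 and Enpp2. Most promoters that changed in 1 mark were thus not called in the other. Without MEF2 the count of 123 was 47 and that of 115 was 31, and without MEF1 the latter was 51. The totals of 315 and 483 were 125 and 89 without MEF2 and 184 each without MEF1, and the 29 with less of both were 7 and 17. Over the 202 lower promoters with an ES mean of at least 1, median H3K4me3 was 1.08 in E14 and 1.24 in V6.5, against 1.69 in MEF1 and 1.93 in MEF2. Their median H3K27me3 was 0.95 in E14, under the threshold for a marked promoter, and 1.51 in V6.5. Zeb2 rose from 0.57 and 0.53 to 2.19 and 2.50 in H3K4me3, Prrx1 from 1.46 and 1.61 to 2.70 and 3.72, and Inhba from -0.49 and -0.33 to 2.34 and 2.67. Tdgf1 went the other way, from 2.33 and 3.08 in E14 and V6.5 to 0.09 and 0.15 in MEF1 and MEF2, and Pou5f1 from 1.93 and 2.47 to -0.44 and -0.56. Of the 20 beta protocadherin promoters 1 was higher in H3K4me3, Pcdhb19, which had read -0.05 in E14 and -0.19 in V6.5 for that mark.

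RNA was available for 11346 of these genes, from 2 arrays of V6.5 and 2 of female MEFs. The labels do not say whether the arrays of a pair came from separate cultures, so these p-values may measure technical spread. Of the genes with a value 1800 were higher (15.9%) and 2027 lower (17.9%) in MEFs. Among the 707 with less promoter H3K27me3, 316 were higher (44.7%) and 22 lower (3.11%). Among the 159 of these with an ES mean of at least 1, 110 were higher (69.2%) and 2 lower. Among the 353 with more H3K27me3, 27 were higher (7.65%) and 118 lower (33.4%). A probe was kept where it was above background on all arrays of a group. A gene with signal in MEFs alone could thus hardly be called lower, nor a gene with signal in ES cells alone higher. How many genes of each class were kept that way was not counted, so these counts are no separate support for the mark. The counts of 316 and 118 were 185 and 61 without the first ES array, 208 and 57 without the second, and 378 and 196 without the second MEF array, on which 86.7% of the probes were above background against 46.4% on the first. The 27 genes with more of both became 107 without the first MEF array and 14 without the first ES array, and the 22 with less of both ran from 3 to 55. The totals of 1800 and 2027 were 908 and 641 without the first ES array, 1065 and 651 without the second, and 2956 and 3388 without the first MEF array. Prrx1, on a log2 scale relative to the 75th percentile of each array, read 0.68 and 1.25 on the ES arrays and 5.69 and 5.04 on the MEF arrays. Mpzl2 read 2.79 and 2.68 against -2.69 and -3.22. Sall4 read 3.58 and 2.57 on the ES arrays against -5.11 and -1.88 on the MEF arrays, and was above background on 1 of the latter.

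The 27 genes with more H3K27me3 and more RNA in MEFs, looked at after their values were seen, were of several kinds. Among them were C1qa and C1qb, of complement, the Fc receptor Fcgr1, the chemokines Ccl3 and Ccl4, the lysozyme Lyz1, the leukocyte antigen Cd52 and the acute-phase protein Saa3. Others were not immune genes, such as Lifr, Slc1a3, Aldh1l1, Asb4, Rxfp2, Tgm5, Lum and Abi3bp. No test was made of the immune genes as a group. Of 6 macrophage markers measured at promoters none was called higher in H3K27me3 and 2 were called lower. Tyrobp and Lyz2 read higher in both MEF lines than in both ES lines, by 0.41 and 0.45 on average, without a call. Adgre1 and Cd68 had lower MEF than ES means, also without a call. Lyz1 read 0.21 and 0.65 for H3K27me3 in the ES lines and 1.43 and 1.63 in the MEF lines, and its RNA was -3.01 and -3.79 against 3.78 and 3.41. C1qa read 0.20, 0.26, 0.98 and 1.04 for H3K27me3. The macrophage markers whose RNA rose in MEFs, given above, move with the immune genes among the 27, and their part was not tested.

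RefSeq promoter sequences, 250 bases before to 50 after a start, matched 11333 of the 15141 promoters. Their CpG content, as the ratio of observed to expected CpG, had a median of 0.68 over all promoters, 0.45 over the promoters with less and 0.30 over those with more H3K27me3 in MEFs. For the 128 matched promoters that were lower with an ES mean of at least 1 the median was 0.62, and for the 242 that were higher with a MEF mean of at least 1 it was 0.33. Matches covered 63.4% and 75.9% of these 2 classes and 74.8% of all promoters. Since fewer than 80% have a sequence, the comparison of base composition is void, and these values describe the matched promoters alone.

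The female line differed from the male one on the X chromosome. In a female cell 1 X chromosome is silenced, and its chromatin carries H3K27me3 along much of its length. Over 533 X-linked promoters the median was -0.01 in E14, -0.07 in V6.5, -0.04 in MEF1 and 0.53 in MEF2. MEF2 exceeded MEF1 at 89.5% of them, by a median of 0.45, with quartiles of 0.199 and 0.83. Over the 6932 autosomal promoters on the same array MEF2 exceeded MEF1 at 35.4%, by a median of -0.09. Marked X-linked promoters numbered 14 in MEF1 and 103 in MEF2. There is 1 line of each sex, so the sex and the line cannot be told apart and no test was made. In the comparison of MEFs with ES cells 3.002% of X-linked promoters were higher and 1.13% lower, against 4.66% and 7.89% of autosomal promoters. The difference between MEF1 and MEF2 on the X adds to the spread within the MEF group that the fit uses. Its part in these shares was not tested.

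The difference on the X was uneven. Ogt, Gpr82 and Gpr34 were chosen for being among the largest differences, after the values were seen. Ogt, an essential glycosyltransferase gene, read -0.24 in MEF1 and 2.13 in MEF2, while its H3K4me3 was 2.57 and 2.59. Gpr82 read -1.03 and 1.42, and Gpr34, an orphan receptor gene, -0.75 and 1.48. Of genes known to escape X inactivation, a list added later, 7 were measured. Kdm6a read 0.38 in MEF1 and 0.33 in MEF2, Ddx3x 0.18 and 0.24, and Kdm5c -0.13 and 0.06. Eif2s3x was lower in the female line, at -0.28 and -0.83, and Shroom4 was alike in both, at 0.19 and 0.25. Pbdc1 and Car5b were higher in MEF2 by 0.48 and 0.78, in reach of the X-linked median.

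**Figure D5:**
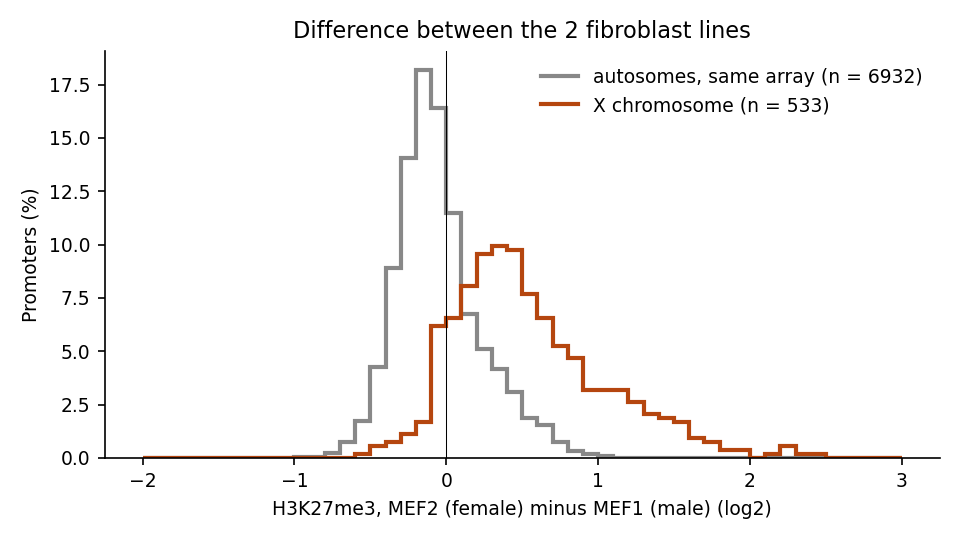
Distribution of the difference in promoter H3K27me3 between the female line MEF2 and the male line MEF1 (log2, bins of 0.1; vertical axis, percent of promoters), for 533 X-linked promoters and for 6932 autosomal promoters on the same array. The X-linked distribution is centred at 0.45 and has a long tail to the right, and the autosomal one is centred at -0.09.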

How the data were processed

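Per the labels, amplified immunoprecipitated DNA carried Cy5 and amplified input DNA Cy3. The authors' deposited scanner files give intensity per spot, made with Agilent Feature Extraction 9.1.3.1 for the promoter arrays, per the file headers. The value tables hold log10 ratios deposited by the authors. The sources used here do not name the genome build of the arrays.

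From the processed intensities log2 red over green was computed and centred on the median of each array's non-control probes. Starts were placed between probes labelled as promoter and as inside the gene, where the gap did not exceed 1000 bp and 3 or more probes lay in the window. For 10185 promoters a RefSeq start could be compared through a shared probe: the median distance was 57.5 bp. Genes lacking one kind of probe (1249), with more than 1 start (133), with a larger gap (418) or with too few probes (49) were not used. Divergent gene pairs account for 2742 of the promoters, and 42 have the same probes as another gene. Symbols were updated for 3298 genes from GRCm38.p6 tables, used for names only.

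Groups were fitted with limma 3.58.1 (lmFit, eBayes) in R 4.3.3, with 2 residual degrees of freedom and Benjamini-Hochberg adjustment over all promoters; adjusted p-values in the text come from it. An exact permutation test of 2 lines against 2 cannot go below p = 0.333. For RNA the deposited intensities were put on a log2 scale, scaled to the 75th percentile of each array, and fitted over all 6 arrays. Probes were kept where they were above background on all arrays of a group, so genes with signal in MEFs alone have a value. The fit was tested on simulated data. The number of arrays limits the precision.

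Named promoters were, in each direction, the 12 largest differences among called promoters whose groups do not overlap, the 6 with the highest lowest value, up to 4 per list and direction, and the cell type markers; genes outside this rule are said to have been chosen after their values were seen, or are further called members of a list. A result that this rule also names is not reported here. The members and the lists were chosen with earlier results of these data known. Alternatives changed the scaling, background correction, window, probe summary and filters, the variance model and the lines, and are given at the end.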

Additional observations from a re-analysis of the deposited data

How the results depend on the processing

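No paired analysis was possible because the numbers in the titles name the array of a set and not a replicate. Scan date as a block was not run, since each line has its own date. The counts of promoters with higher and lower H3K27me3 in MEFs, 696 and 1158, became 1517 and 3621 with each array scaled to one spread, 2526 and 2485 with quantile normalization, 387 and 503 within 500 bp, 423 and 629 with the median over probes, and 1062 and 2165 with a variance trend. The lower count was 689 after normexp and 2183 within 2000 bp. Both counts stayed within 1.5 times with at least 5 probes, probes above background, the deposited log ratios and the iPS line added as a group of its own. Leaving out 1 line in turn gave 0 to 447 higher and 0 to 1358 lower, and without MEF1 there were 174 and 124. The lone line of a group is then assumed to vary like the other group. Fewer lines were fitted there, and for the other settings the cause was not tested.

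Marked promoters at a threshold of 0.5 numbered 2325 in E14, 3663 in V6.5, 2783 in MEF1 and 3365 in MEF2, and at 1.5 they numbered 39, 759, 204 and 641. With each array scaled to one spread E14 had 1753 and MEF2 898. Promoters separated between the groups numbered 622 higher and 1122 lower at a gap of 0.5, 10 and 34 at 1.5, and 49 and 487 with scaled arrays. The X-linked median of MEF2 minus MEF1 was 0.35 within 500 bp and 0.50 with the median over probes.

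For H3K4me3, leaving out 1 line gave 125 to 342 higher and 89 to 587 lower, with 184 each without MEF1. At promoters with less H3K27me3 it gave 47 to 134 higher and 7 to 32 lower, and at those with more it gave 2 to 3 higher and 31 to 137 lower. Without MEF1, 17 were lower at promoters with less and 51 at those with more. Within 500 bp the latter count was 75. For RNA, leaving out 1 array gave 908 to 2956 higher and 641 to 3388 lower. At promoters with less H3K27me3 it gave 185 to 388 higher and 3 to 55 lower, and at those with more 14 to 107 higher and 57 to 196 lower. Quantile normalization made the count of genes with less H3K27me3 and less RNA 38, and normexp with quantile made that with more of both 16.

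Of 99 named promoters, 6 turned direction with each array scaled to one spread: Lrfn5 to -1.31, Mir10a to -1.35, Lhx8 to -0.81, Gata6 to -0.64, Sox17 to -0.62 and Foxd4 to -0.79. Twist2 turned to 0.0927 within 500 bp. Without V6.5 and without MEF2, 71 of the 99 lost their call each time.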
